A study of Mus musculus with 15 samples.

Results

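The genes described here are heat shock proteins and chaperones of mouse liver, chosen by a rule on symbols. The rule searched for the Hsp, Dnaj, Cct, Bag, Fkbp, Hsf, Pdia, prefoldin, Ahsa, Ptges3, Cdc37 and Grpel families together with Tcp1, Stip1, Chordc1, Calr, Canx, Hyou1, Sil1 and Hspbp. The rule found 49 of the genes in the deposited table, which holds 1800 genes that were lower and 1711 that were higher with CCl4 than with oil. By the known place of the protein, 34 act in the cytosol or nucleus, 8 in or on mitochondria and 4 in the endoplasmic reticulum (ER). Of the rest, 1 (Fkbp15) belongs to endosomes and 2 (Dnaja1-ps and Ptges3-ps) are processed pseudogenes that may take reads from their parent genes. The 4 ER members were Calr, Sil1, Fkbp2 and Fkbp10. No Hsf, Pdia, Canx, Hyou1 or Hspbp gene was among the 49, nor were the ER chaperones Hspa5 and Hsp90b1, so the ER results do not cover them. The values come from RNA of whole liver of 15 male wild type Swiss Webster mice, 3 in each of 5 groups, aged 4 to 5 weeks at the start. The untreated group were littermates that received no injection. The oil group received 30 μl corn oil per 25 g body weight and the CCl4 group received 4 μl CCl4 in 26 μl corn oil per 25 g, both 3 times a week for 5 weeks. The oil + EVNorm and CCl4 + EVNorm groups received in addition EVNorm at 80 μg per 25 g, also 3 times a week but on other days than the oil or CCl4, during the final 2 weeks. EVNorm are extracellular vesicles from cultures of AML12, a line of normal mouse hepatocytes. Livers of the injected groups were taken 36 h after the last oil or CCl4 dose, so the chaperone genes were read at a single time after injury.

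Chaperones bind unfolded proteins and help them to fold, travel or be degraded. In the cytosol, Hsp70 proteins bind short stretches of a client with the help of J-domain proteins (Dnaj) and of exchange factors that release ADP, and Hsp90 with its partners completes the maturation of kinases and steroid receptors. The chaperonin TRiC folds actin and tubulin delivered by prefoldin. Mitochondria have their own Hsp70 (Hspa9) and chaperonin (Hspd1 with Hspe1), and the ER has Hsp70 and lectin chaperones such as calreticulin. Heat shock factor 1 induces many cytosolic chaperone genes through heat shock elements, whereas ER chaperones are induced by the unfolded protein response through a separate element. In hepatocytes these systems serve the synthesis and export of plasma proteins.

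The deposited table is limited to the genes that the authors called between CCl4 and oil, so a CCl4 against oil difference was the condition for entry and is given without a test. Recovered reads over the table ranged from 6106856 to 11055679 per library. Oil replicates 2 and 3 stood closer together than any other pair of libraries in a group (mean chi-square per gene 2.168, against 31.43 to 283.4 for the other 14 pairs). Between them 15.86% of genes still differed at an unadjusted p under 0.05 from the chi-square test. That test compares them with counting noise alone, so it cannot tell whether they came from separate mice. They were kept as separate libraries, as labelled, and their average was tried as an alternative. For the label of the tissue, 3 of 10 hepatocyte markers were in the table (Apoa1, Cyp2e1 and Glul), and their summed normalized count was 255127.8 to 268517.1 with oil, 200987.3 to 262405.2 with oil + EVNorm, 151879.2 to 175405.4 with CCl4 and 154968.5 to 179869.3 with CCl4 + EVNorm. In bulk tissue, fewer cells of a type and less RNA per cell cannot be told apart.

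The promoters carried the regulatory elements named above in part of the members. RefSeq windows of GRCm38.p6, from 250 bases before to 50 bases after the start of a transcript, matched 40 of the 49 members. Hspa8 and Hsp90aa1 were among the members without a window. A heat shock element of 3 units (GAA and TTC in alternation, with 2 bases between units, starting with either) was present in 4 of these 40, namely Chordc1, Hsph1, Hspd1 and Hspe1, against 0.6623% of 27025 genes. The following sequences show these elements and the 2-unit elements of Hspa1b and Hspb1, whose levels differed widely between groups, and the ER stress element of Calr, with the matched letters in capitals.
Chordc1, chr9:18292260-18292288, + strand: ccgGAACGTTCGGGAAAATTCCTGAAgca
Hsph1, chr5:149636280-149636308, - strand: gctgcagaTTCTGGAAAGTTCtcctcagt
Hspd1, chr1:55088034-55088101, - strand: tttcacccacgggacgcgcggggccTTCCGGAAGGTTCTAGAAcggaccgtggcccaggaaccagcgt
Hspe1, chr1:55088034-55088101, + strand: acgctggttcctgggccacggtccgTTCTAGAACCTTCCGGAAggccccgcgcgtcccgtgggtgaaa
Hspa1b, chr17:34959310-34959367, - strand: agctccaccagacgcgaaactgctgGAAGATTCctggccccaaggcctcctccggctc
Hspb1, chr5:135887797-135887854, + strand: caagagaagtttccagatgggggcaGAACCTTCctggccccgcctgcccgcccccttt
Calr, chr8:84847050-84847118, - strand: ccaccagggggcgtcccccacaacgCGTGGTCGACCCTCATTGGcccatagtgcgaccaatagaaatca

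The capitals of Chordc1 join 3 overlapping matches into 1 run of alternating GAA and TTC units, which spans the start of the transcript from 4 bases before it to 19 bases after it. The match of Hsph1 lies 16 to 28 bases after 1 of its annotated starts and 37 to 49 bases after the other. Hspb1 has 2 matches of the 2-unit element, of which the nearer to the start is in capitals, 97 to 90 bases before it. The other, gaagtttc at 117 to 110 bases before the start, lies in the same printed stretch in lower case. The run of Hspd1 lies 144 to 127 bases before its start. Hspd1 and Hspe1 are divergent neighbors on chromosome 1, and the capitals of Hspe1, 89 to 72 bases before its own start, are the same bases read on the other strand. An element of 2 units (GAANNTTC or TTCNNGAA, which the 3-unit form contains) was found in 14 of the 40 members, against 16.97% of all genes. Of these 14, 12 were among the 30 cytosolic members with a window, 2 among the 7 mitochondrial members and 0 among the 2 ER members with a window, a number too small to read. The ER stress element (CCAAT and CCACG with 9 bases between, on either strand) was found in Calr alone among the 40, against 0.1369% of all genes. The CCAAT box, which the ER stress element contains, was present in 18 of the 40 members and in 41.06% of all genes. A match of letters is a description of the window and shows no binding.

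Across the 5 groups, the cytosolic mean moved further down than the ER mean. Each member was set to its own mean over the 15 libraries on the log2 scale, and the relative levels were averaged within a compartment for each mouse. The cytosolic mean was 0.33 ± 0.11 (SD, n = 3) in untreated mice, 0.41 ± 0.07 with oil, 0.04 ± 0.17 with oil + EVNorm, -0.22 ± 0.01 with CCl4 and -0.55 ± 0.06 with CCl4 + EVNorm. The 3 CCl4 + EVNorm mice, at -0.60 to -0.49, lay below the other 12. The ER mean was -0.01 ± 0.15, -0.05 ± 0.12, -0.28 ± 0.17, 0.16 ± 0.07 and 0.18 ± 0.04 in the same order of groups. The higher ER mean with CCl4 rests on Fkbp10, a scarce gene with counts of 5.6 to 40.7. Without it the mean of Calr, Sil1 and Fkbp2 was 0.13 ± 0.07, 0.03 ± 0.01, -0.03 ± 0.04, -0.11 ± 0.03 and -0.02 ± 0.03, so that it was lower with CCl4 than with oil in every mouse. The mitochondrial mean was 0.39 ± 0.16, 0.23 ± 0.04, 0.05 ± 0.10, -0.29 ± 0.08 and -0.38 ± 0.08, and the CCl4 and CCl4 + EVNorm mice overlapped.

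**Figure D1:**
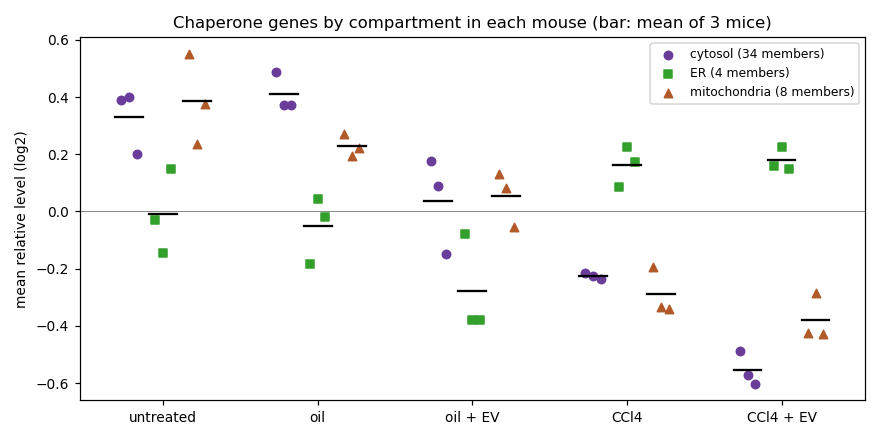
Mean relative level (log2, each member set to its own mean over the 15 mice) of the cytosolic, ER and mitochondrial members in each mouse; points are mice and bars are means of 3 mice. The cytosolic points fall to -0.60 to -0.49 with CCl4 + EVNorm while the ER points of the CCl4 groups lie above 0, a position that rests on Fkbp10.

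The cytosolic mean minus the ER mean was 0.34 in untreated mice, 0.46 with oil, 0.32 with oil + EVNorm, -0.39 with CCl4 and -0.73 with CCl4 + EVNorm, and no mouse with CCl4 (-0.45 to -0.30) overlapped a mouse with CCl4 + EVNorm (-0.80 to -0.65). Without Fkbp10 the difference was 0.20, 0.38, 0.07, -0.12 and -0.53, and these 2 groups still did not overlap (-0.14 to -0.10 and -0.61 to -0.44). The cytosolic mean minus the mitochondrial mean was -0.06, 0.18, -0.01, 0.07 and -0.17 in the same order, and its ranges with CCl4 + EVNorm (-0.29 to -0.06) and with CCl4 (-0.02 to 0.11) did not overlap. These compartment means are descriptions and carry no test, because members are not replicates and all of them entered the table through CCl4 against oil.

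The order of the members by level, per kilobase of annotated exon, changed with the groups. In untreated mice Hspd1 (5119 ± 762 per kilobase, SD, n = 3) was rank 1 and Hspa8 (4418 ± 565) rank 2, with overlapping ranges. In oil mice the highest was Hspa8 (5182 ± 11.2 per kilobase, SD, n = 3), followed by Hspd1 (4666 ± 368) and Hsp90aa1 (3934 ± 652), while Calr, at 1963 ± 53.5, was rank 7 of the 47 members other than pseudogenes. With oil + EVNorm Hspd1 (4047 ± 254) was rank 1 and Hspa8 (2980 ± 166) rank 2, so Hspa8 led in the oil group alone. With CCl4 the order was Hspd1 (3707 ± 111), Calr (2612 ± 72.2) and Hspa8 (2611 ± 137), the last pair lying within their spread. With CCl4 + EVNorm, Hspd1 (3483 ± 69.1) and Calr (3050 ± 153) led, and Hspa8 was rank 8 at 1121 ± 266. Hspa8 made up 16.2% ± 0.87 of the summed cytosolic level per kilobase with oil, 12.5% ± 1.08 with oil + EVNorm, 13.2% ± 0.73 with CCl4 and 7.36% ± 1.47 with CCl4 + EVNorm. Its share in untreated mice was 14.25% ± 2.25 (12.25% to 16.68%), a range that included the CCl4 mean.

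**Figure D2:**
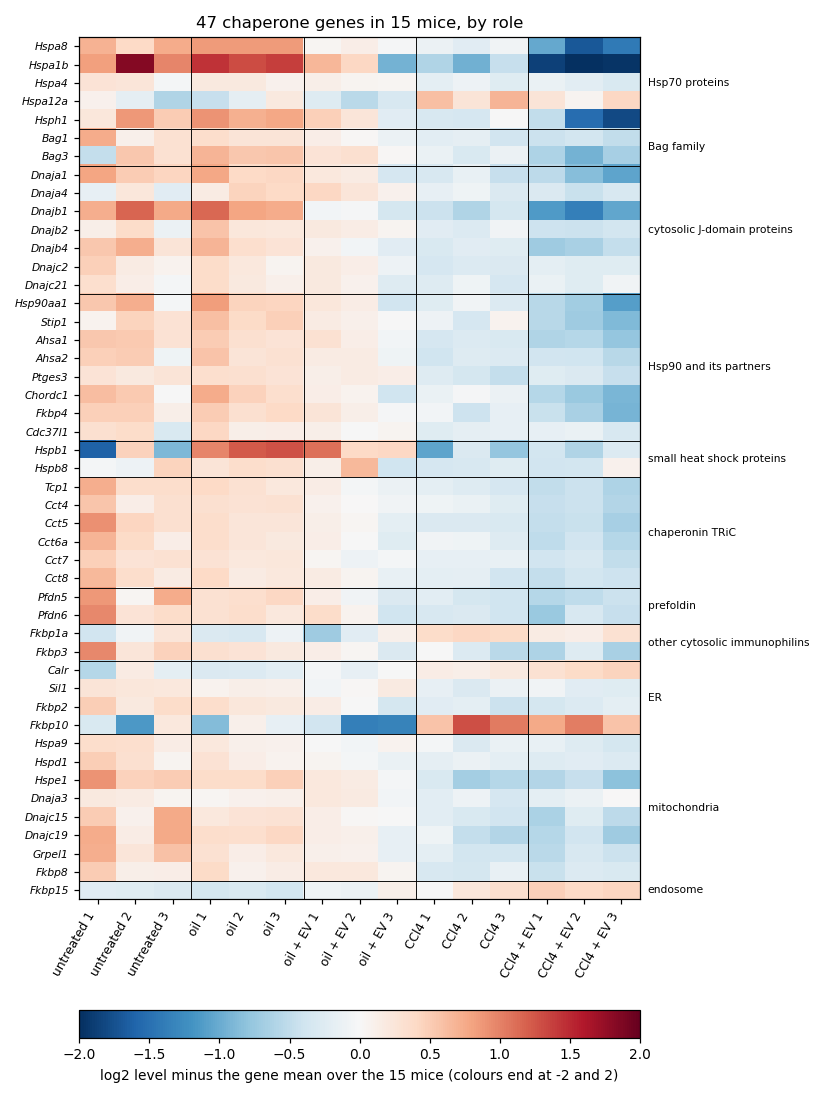
Level of 47 chaperone genes in the 15 mice, as log2 of the normalized count minus the gene mean, with rows ordered by role and columns by group. Hspa8, Hspa1b, Hsph1 and Dnajb1 are darkest blue in the CCl4 + EVNorm columns, TRiC rows are paler, and Hspa12a, Fkbp1a, Calr, Fkbp10 and Fkbp15 are higher there than in the oil + EVNorm columns on average.

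Whether the vesicles alter these genes in injured liver is the comparison of CCl4 + EVNorm with CCl4. At an adjusted p under 0.05 from limma, 6 of the 49 members were lower and 0 were higher, whereas 5.16% of all genes tested were lower and 0.513% higher. All 6 were cytosolic: Hspa8, Hspa1b, Hsph1, Dnajb1, Chordc1 and Stip1. Among the 1800 genes of the table that were lower with CCl4 than with oil, 1.28% were lower again with CCl4 + EVNorm, and among the 43 members lower with CCl4 these 6 were 14.0%. Of the 4 ER and 8 mitochondrial members, 0 passed with limma, edgeR or DESeq2, and 0 had an unadjusted p under 0.05 from limma. For rises, only Fkbp15 had an unadjusted p under 0.05. The median log2 fold change was -0.24 over cytosolic, -0.11 over mitochondrial and 0.01 over ER members, and -0.06 over the table. Of the 49, 21 had all CCl4 + EVNorm mice below all CCl4 mice and 4 had all above, against 20% and 8% of the table.

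Those 6 calls depended on the scale and the libraries to different degrees. Centring each library on its median moved the table median of this comparison from -0.06 to 0.05, and relative to it Hspa8 alone stayed past the threshold (-1.13, adjusted p = 0.0012 from limma), with Dnajb1 at 0.0502, Hspa1b at 0.0527, Hsph1 at 0.0577, Stip1 at 0.0596 and Chordc1 at 0.120. On that scale Hspa9, Hspd1, Hspe1, Fkbp8, Hspa4 and Cdc37l1, all slightly below 0 otherwise, were slightly above 0 (0.00 to 0.10). The number was 2 without CCl4 replicate 1, without CCl4 replicate 3, without CCl4 + EVNorm replicate 2 or without CCl4 + EVNorm replicate 3. Hspa8 was past the threshold under all 17 alternatives tried. Other marker lists moved between the same groups. The 5 dividing cell markers summed to 3221.6 to 4441.8 with CCl4 and 615.3 to 740.4 with CCl4 + EVNorm, the 2 macrophage markers in the table (of 11) to 3487.5 to 4078.7 and 1411.7 to 2067, and the 6 stellate cell markers (of 12) to 18078.1 to 23080.1 and 10890 to 12939.7. The endothelial marker in the table (Clec4g, of 6) gave 1190.8 to 1236 with CCl4 and 982.1 to 1007.8 with CCl4 + EVNorm. Other lists were higher with CCl4 + EVNorm. The cholangiocyte marker (Sox9, of 5) gave 192.9 to 273.6 with CCl4 and 311.8 to 358.2 with CCl4 + EVNorm. The 2 T and B cell markers (of 7) summed to 31.5 to 52.6 and 58.4 to 80.1. The part of these lists in the chaperone results was not tested. The hepatocyte sums given above overlapped between these groups.

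**Figure D3:**
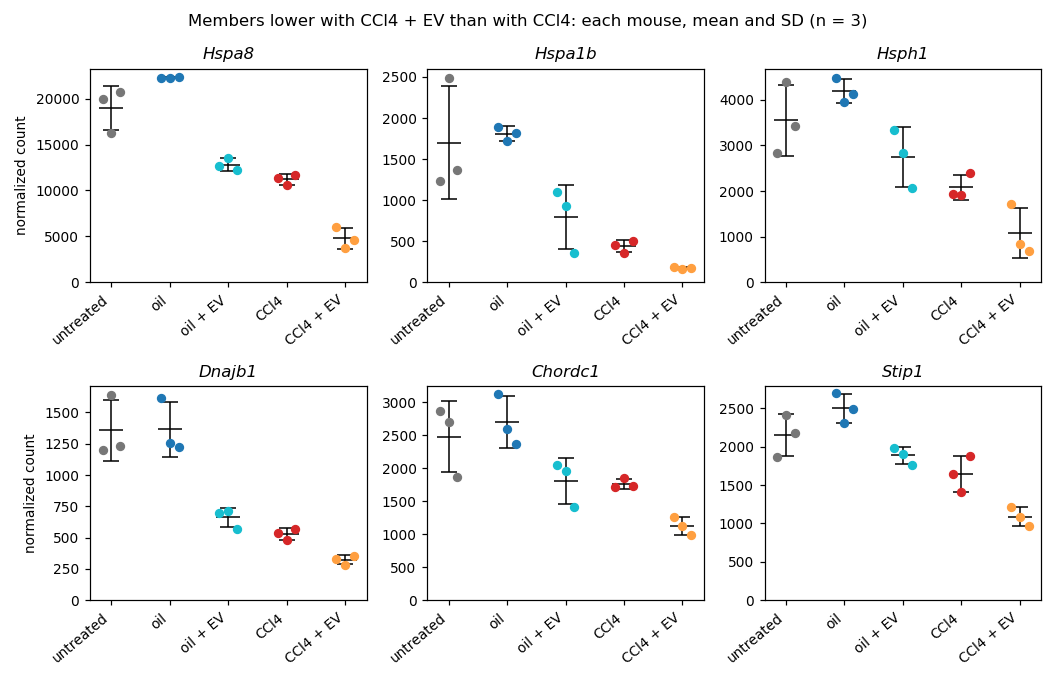
Normalized counts (from 0, linear axes) of the 6 members that were lower with CCl4 + EVNorm than with CCl4, in each of the 15 mice, with mean and SD of 3 mice. In each panel the 3 CCl4 + EVNorm mice lie below the 3 CCl4 mice, and the oil + EVNorm mice lie below the oil mice.

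Hsp70 proteins held 3 of the 6. Hspa8, the constitutive cytosolic Hsp70 that folds new proteins and uncoats clathrin vesicles, is encoded on chromosome 9 (bases 40800984 to 40810087 of GRCm38). The normalized counts of Hspa8 were 20014.3, 16228.8 and 20756.9 in untreated mice, 22248.3, 22272.7 and 22341.5 with oil, 12684.8, 13589.5 and 12178.7 with oil + EVNorm, 11412.3, 10570.2 and 11702.2 with CCl4, and 6055, 3789.9 and 4624.7 with CCl4 + EVNorm. Neither vesicle group overlapped its control, and the CCl4 + EVNorm mice were the lowest of the 15. The log2 fold change of CCl4 + EVNorm against CCl4 was -1.24 (SE 0.15, adjusted p = 0.00067 from limma), that is 0.42 times the CCl4 level. Hspa8 has processed pseudogenes, and reads may be split between them.

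Hspa1b, the Hsp70 induced by heat and other stress, lies on chromosome 17 from 34956436 to 34959238, and reads may be split with its near-identical neighbor Hspa1a, which is not analysed here. Its counts were 1230.5, 2486.4 and 1372.8 in untreated mice, 1893.1, 1718.2 and 1817.3 with oil, 1103.8, 930.4 and 361.6 with oil + EVNorm, 457.4, 357 and 506.6 with CCl4, and 189.2, 166.2 and 178.9 with CCl4 + EVNorm. Hspa1b fell by 1.29 on the log2 scale with CCl4 + EVNorm against CCl4 (SE 0.32, adjusted p = 0.0276 from limma). Oil + EVNorm replicate 3 was far below its group and close to the CCl4 mice.

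Hsph1 encodes a large Hsp70 relative that acts as an exchange factor and helps to dissolve aggregates. It lies on chromosome 5 from 149614287 to 149636376. Its counts were 2826.3, 4379.5 and 3428.3 in untreated mice, 4484.1, 3957 and 4133.6 with oil, 3340.6, 2840.9 and 2056.9 with oil + EVNorm, 1936.5, 1915.4 and 2401.4 with CCl4 and 1715.3, 833.2 and 692.1 with CCl4 + EVNorm, so CCl4 + EVNorm replicate 1 stood well above the other 2 mice of its group. The log2 fold change was -1.06 (SE 0.27, adjusted p = 0.0276 from limma), and it passed under 7 of 17 alternatives; with the replicate number as a block and these groups alone the adjusted p was 0.0932. Hspa4, of the same Hsp110 branch, gave -0.04 (SE 0.10, adjusted p = 0.92), with CCl4 counts of 3534.4 to 3879.9 and CCl4 + EVNorm counts of 3393.3 to 3806.6. Hspa12a, a distant Hsp70 relative, was higher with CCl4 than with oil and gave -0.27 (SE 0.24, adjusted p = 0.67).

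Of the 7 cytosolic J-domain proteins, which bring clients to Hsp70 and start its ATP cycle, 1 passed. Dnajb1, a stress-induced J-domain protein on chromosome 8 from 83608193 to 83612653, had counts of 539, 479.8 and 571.9 with CCl4 and 332.4, 282.2 and 353 with CCl4 + EVNorm. Its log2 fold change was -0.72 (SE 0.16, adjusted p = 0.0116 from limma). Dnaja1, the most abundant of the 7 by mean count, had CCl4 counts of 4206.6 to 5249.4 and CCl4 + EVNorm counts of 2793.6 to 4022.1, a difference of -0.50 (SE 0.17) with an adjusted p of 0.118, or 0.0212 with the replicate block over all libraries and 0.0571 with the block and these groups alone. The other 5 ranged from -0.36 (Dnajb4) to 0.08 (Dnajc21), and Dnajc2 and Dnajc21, which work on ribosomes and their assembly, lay at 0.07 and 0.08. The Bag exchange factors Bag1 and Bag3, the second a partner of Hspb8 in selective autophagy, gave -0.17 and -0.56 (adjusted p = 0.61 and 0.13 from limma, and for Bag3 0.0279 with the replicate block and these groups alone), and all 3 Bag3 values with CCl4 + EVNorm (276.7 to 350.5) were below those with CCl4 (435.3 to 493.9).

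Of Hsp90 and its 7 partners, 2 passed. Stip1, the adaptor that hands clients from Hsp70 to Hsp90, lies on chromosome 19 from 7020702 to 7039967. Its counts were 1866.7, 2414.3 and 2174.9 in untreated mice, 2698.7, 2311.6 and 2488.5 with oil, 1989.1, 1911.5 and 1767.4 with oil + EVNorm, 1649.8, 1411.8 and 1874.4 with CCl4 and 1215.9, 1081.7 and 967.4 with CCl4 + EVNorm, and it fell by 0.59 on the log2 scale (SE 0.13, adjusted p = 0.0125 from limma, and 0.0535 with the replicate block and these groups alone). Chordc1, an Hsp90 co-chaperone on chromosome 9 from 18292125 to 18317442, had counts of 2863.9, 2698.9 and 1860.1 in untreated mice, 3130.5, 2586.6 and 2364.9 with oil, 2055.8, 1954.8 and 1416.2 with oil + EVNorm, 1711.9, 1848.6 and 1730.2 with CCl4 and 1262, 1119.3 and 991.9 with CCl4 + EVNorm, a log2 fold change of -0.65 (SE 0.17, adjusted p = 0.0355).

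Hsp90aa1, the stress-inducible Hsp90, had the second highest mean count of the cytosolic members after Hspa8. Its counts were 14952.7, 17117.2 and 10065.1 in untreated mice, 18419.9, 14095.7 and 13878.4 with oil, 12046.1, 11408 and 7923 with oil + EVNorm, 8691.7, 9791 and 8525.3 with CCl4 and 6997, 6374.2 and 4781.5 with CCl4 + EVNorm, with no overlap between the last 2 groups, but their difference of -0.59 (SE 0.21) had an adjusted p of 0.13 from limma, 0.0241 with the replicate block over all libraries and 0.0390 with the block and these groups alone. Fkbp4, an immunophilin of steroid receptor complexes, gave -0.46 (SE 0.15, adjusted p = 0.082, 0.0295 with the block over all libraries and 0.0829 with the block and these groups alone). With the block over all libraries, 9 members were thus lower, the 6 above with Dnaja1, Hsp90aa1 and Fkbp4, and with the block and these groups alone 6 were, namely Hspa8, Hspa1b, Dnajb1, Chordc1, Bag3 and Hsp90aa1. Ahsa1, which stimulates the ATPase of Hsp90, gave -0.34 (adjusted p = 0.11), whereas Ahsa2 (-0.14), Cdc37l1 (-0.01) and Ptges3, the p23 co-chaperone (0.03), overlapped between the groups.

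The remaining cytosolic members did not pass with limma. All 6 TRiC subunits (Tcp1, Cct4, Cct5, Cct6a, Cct7 and Cct8) had fold changes within a narrow band of -0.35 to -0.17, and in 5 of the 6 the groups did not overlap; the smallest adjusted p was 0.0892 for Cct4, which passed with DESeq2 (0.0111). The prefoldin subunits Pfdn5 and Pfdn6 gave -0.18 and -0.17. The small heat shock proteins, which hold unfolded proteins without using ATP, gave 0.29 for Hspb1 (SE 0.38) and 0.08 for Hspb8 (SE 0.21). Fkbp1a, the target of tacrolimus, and the nuclear Fkbp3 gave -0.19 and -0.24.

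The mitochondrial members had log2 fold changes of CCl4 + EVNorm against CCl4 from -0.17 (Dnajc19) to 0.11 (Dnaja3). Hspa9 and Hspd1 had the highest mean counts of the 8. Hspd1, the mitochondrial chaperonin on chromosome 1 from 55077835 to 55088243, had counts of 9674.3, 10128 and 9577.5 with CCl4 and 9186.1, 9393.6 and 9029.5 with CCl4 + EVNorm (-0.09, SE 0.12, adjusted p = 0.79 from limma), all 3 below the CCl4 mice by a small margin. Hspa9, the Hsp70 that pulls proteins into the matrix, on chromosome 18 from 34937414 to 34954357, had counts of 11208.1, 9364.9 and 10510.8 and of 10297.6, 9595 and 8954.3 (-0.11, SE 0.11, adjusted p = 0.72). Hspe1, the lid of the Hspd1 barrel, gave -0.11 (SE 0.14), and the annotated Hspd1 and Hspe1 genes overlap at their starts on opposite strands. Grpel1, the exchange factor of Hspa9, gave -0.12, the inner membrane J-domain proteins Dnajc15 and Dnajc19 both gave -0.17, and Fkbp8 of the outer membrane gave -0.07.

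**Figure D4:**
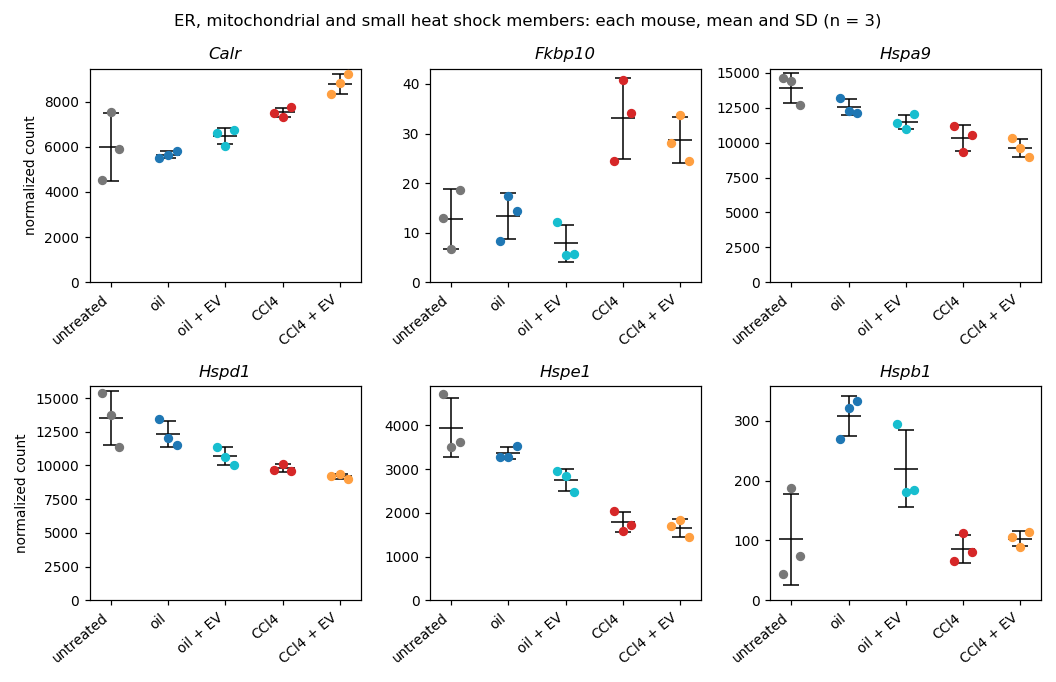
Normalized counts (from 0, linear axes) of ER members Calr and Fkbp10, mitochondrial members Hspa9, Hspd1 and Hspe1 and the small heat shock protein Hspb1 in each mouse, with mean and SD of 3 mice. Calr climbs to 8335.5 to 9213.4 with CCl4 + EVNorm, and Hspb1 is above 269 in all 3 oil mice.

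Calr encodes calreticulin, the ER lectin chaperone of glycoproteins, and lies on chromosome 8 from 84841850 to 84846934. Its counts were 4535, 7538 and 5892.1 in untreated mice, 5518.8, 5618.7 and 5821.4 with oil, 6598.6, 6055.4 and 6734.7 with oil + EVNorm, 7499.3, 7328.3 and 7742.1 with CCl4, and 8335.5, 8807.3 and 9213.4 with CCl4 + EVNorm. The vesicle group was above its control without overlap in both settings, but neither difference passed (0.22, SE 0.14, adjusted p = 0.51 with CCl4; 0.19, SE 0.14, adjusted p = 0.37 with oil). Untreated mice overlapped all of the other groups except CCl4 + EVNorm. Fkbp2, an ER prolyl isomerase, had counts of 1157.4, 942.2 and 1063.7 in untreated mice, 1048.4, 964 and 945.5 with oil, 914.4, 821.2 and 644.2 with oil + EVNorm, 704, 713.9 and 611.8 with CCl4, and 644.2, 680.4 and 720.7 with CCl4 + EVNorm. Fkbp2 and Sil1, the exchange factor of the ER Hsp70, both gave 0.01 for CCl4 + EVNorm against CCl4. Fkbp10, an isomerase needed for collagen folding, had counts of only 24.5, 40.7 and 34.1 with CCl4 and 28, 33.7 and 24.5 with CCl4 + EVNorm (-0.18, SE 0.42).

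In mice without CCl4, oil + EVNorm against oil, 2 members were lower and 0 higher, against 0.0854% and 0.142% of the table. They were Dnajb1 and Hspa8, 2 of only 3 genes of the table that were lower. The counts of Dnajb1 were 1618.6, 1257.4 and 1222.3 with oil and 700.7, 712.1 and 570.9 with oil + EVNorm (-1.04, SE 0.16, adjusted p = 0.0211 from limma), and those of Hspa8 are given above (-0.80, SE 0.15, adjusted p = 0.0491). The untreated mice, which entered this comparison only through the shared estimate of spread, had Dnajb1 counts of 1201.5 to 1639.3 and Hspa8 counts of 16228.8 to 20756.9. All were above those of oil + EVNorm. The same oil + EVNorm libraries gave the 2 calls, so this is a description and not separate support. Hspa1b had the largest difference (-1.33, SE 0.32) with an adjusted p of 0.076. Both calls were lost by edgeR, with oil replicates 2 and 3 averaged, without any 1 of the oil libraries, and without oil + EVNorm replicate 2 or replicate 3. DESeq2 gave 3 lower (Hspa1b in addition) and 1 higher (Fkbp15), against 4.16% of the table in either direction with that tool.

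All 34 cytosolic members had a fold change below 0 in this comparison, with a median of -0.29, against 56.8% of the table. Genes that were lower with CCl4 than with oil share this sign in general: 90.5% of the 1800 such genes were below 0, with a median of -0.24, and the 32 cytosolic members among them had a median of -0.30. The oil libraries that entered this comparison had also been used to choose the genes. Within the oil + EVNorm group, replicate 3 was the lowest mouse for 28 of the 34 cytosolic and 7 of the 8 mitochondrial members, and replicate 1 was the highest for 28 and 6. The shares over the table were not computed, so these counts cannot be read as particular to the members. Among the ER members, Fkbp2 gave -0.33 and Fkbp10 -0.72 without passing.

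The fold changes with vesicles did not differ detectably between injured and uninjured liver. The difference between the vesicle effect under CCl4 and that under oil passed for 0 of 49 members with limma, edgeR and DESeq2, and 0 had an unadjusted p under 0.05 from limma, while 1.97% of the table passed. For Hspa8 the difference was -0.44 (SE 0.21, adjusted p = 0.39), for Dnajb1 0.32 (SE 0.22, adjusted p = 0.59) and for Hspa1b 0.04 (SE 0.46, adjusted p = 0.98). The standard errors leave room for sizeable differences in either direction.

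**Figure D5:**
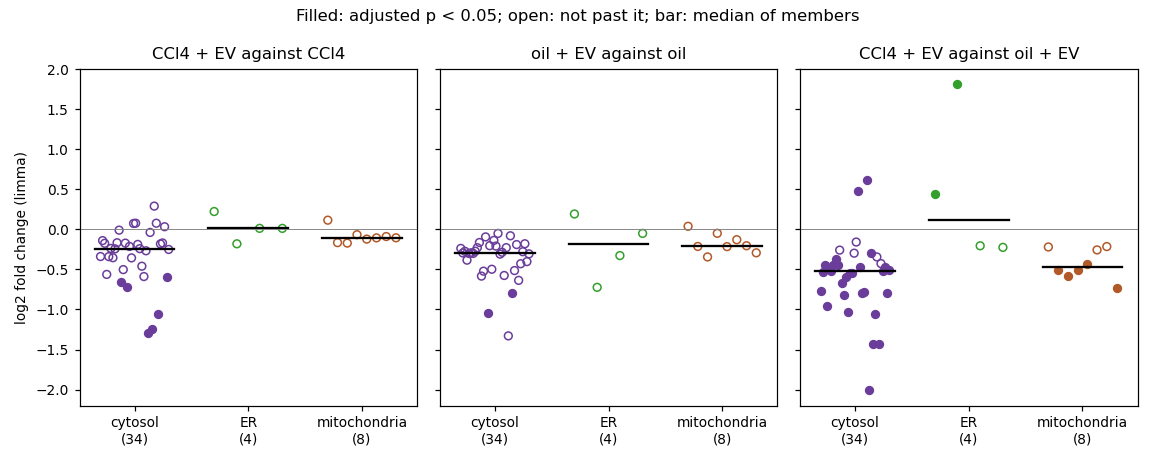
Log2 fold changes (limma) of the cytosolic, ER and mitochondrial members in 3 comparisons; each point is a gene, filled where the adjusted p is under 0.05, and bars are medians. Filled points are 6 cytosolic genes in CCl4 + EVNorm against CCl4, 2 in oil + EVNorm against oil, and 29 cytosolic, 2 ER and 5 mitochondrial genes in CCl4 + EVNorm against oil + EVNorm.

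CCl4 + EVNorm against oil + EVNorm shows the chaperone genes after CCl4 in libraries that played no part in the choice of genes. Here 32 members were lower and 5 higher, against 29.1% and 20.5% of the table. Of the 3 hepatocyte markers, Glul (-1.43) and Cyp2e1 (-0.60) were lower too and Apoa1 gave -0.28 (adjusted p = 0.00017, 0.0304 and 0.20 from limma), with the sums given above not overlapping. Their part in the chaperone result was not tested. Of the cytosolic members 27 of 34 were lower and 2 higher, of the mitochondrial members 5 of 8 were lower, and of the ER members 0 of 4 were lower and 2 higher. Of the 43 members that were lower with CCl4 than with oil, 74.4% were lower here, against 56.6% of the 1800 such genes. The largest falls were those of Hspa1b (-2.01, SE 0.32, adjusted p = 0.00065), Hspa8 (-1.44, SE 0.15, adjusted p = 2.01e-05), Hsph1 (-1.43, SE 0.27, adjusted p = 0.0016), Hspb1 (-1.06, SE 0.38, adjusted p = 0.0341) and Dnajb1 (-1.03, SE 0.16, adjusted p = 0.00038), all from limma. The counts of Hspb1 were 295.1, 181.6 and 183.7 with oil + EVNorm and 106.1, 89.4 and 113.6 with CCl4 + EVNorm. Bag3 had 646, 672.6 and 547.7 with oil + EVNorm (-0.95, SE 0.20, adjusted p = 0.0032) and Dnaja1 had 6740.7, 6480.6 and 4610.3 (-0.82, SE 0.17, adjusted p = 0.0033), each above the CCl4 + EVNorm counts given before. Fkbp4 had 6173.6, 5605.7 and 5075.4 with oil + EVNorm and 3778.6, 3304.7 and 2697.2 with CCl4 + EVNorm (-0.79, SE 0.15, adjusted p = 0.0014), and Stip1 gave -0.80 (SE 0.13, adjusted p = 0.00071). None of these genes overlapped between the 2 groups.

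By role, 4 of 5 Hsp70 proteins, both Bag factors, 5 of 7 J-domain proteins, 7 of 8 in the Hsp90 group and all 6 TRiC subunits were lower. TRiC again moved as a narrow band, from -0.52 to -0.37, whereas the Hsp70 proteins ranged from -2.01 to 0.62. Hspe1 had the largest mitochondrial fall, with counts of 2958.1, 2842.8 and 2469.7 with oil + EVNorm and 1695.6, 1843.6 and 1440.5 with CCl4 + EVNorm (-0.73, SE 0.14, adjusted p = 0.0017). The other mitochondrial members that fell were Dnajc19 (-0.58), Dnajc15 (-0.51), Fkbp8 (-0.50) and Grpel1 (-0.43). Hspd1, the partner of Hspe1, gave -0.21 (SE 0.12, adjusted p = 0.13), with counts of 10057.8 to 11395.2 and 9029.5 to 9393.6.

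The 5 members that rose were Fkbp10 (1.82, SE 0.42, adjusted p = 0.0058), Hspa12a (0.62, SE 0.24, adjusted p = 0.0424), Fkbp1a (0.48, SE 0.18, adjusted p = 0.0409), Fkbp15 (0.46, SE 0.11, adjusted p = 0.0063) and Calr (0.44, SE 0.14, adjusted p = 0.021). Fkbp10 counts were 12.1, 5.6 and 5.8 with oil + EVNorm and 28, 33.7 and 24.5 with CCl4 + EVNorm. Fkbp10 and Fkbp15 passed under all 17 alternatives, Calr under 15, and Hspa12a and Fkbp1a under 10 each. The 6 stellate cell markers in the table (Col1a1, Col1a2, Col3a1, Pdgfrb, Reln and Lum) rose between the same groups, 6 of 6, with sums of 4677.2 to 5718.3 and 10890 to 12939.7. Their part in the rise of Fkbp10 and the other 4 was not tested.

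Oil injection alone was compared with no injection. Of the 49 members 1 was higher, against 0.712% of the table, and 0 were lower, against 0.199%. The member was Hspb1, on chromosome 5 from 135887919 to 135889563, with counts of 44.1, 188.4 and 73.3 in untreated mice and 269.2, 321.7 and 332.6 with oil (1.84, SE 0.38, adjusted p = 0.029 from limma). Its CCl4 counts of 65.3, 112.1 and 79.9 and CCl4 + EVNorm counts of 106.1, 89.4 and 113.6 lay within the untreated range, below all 3 oil mice. The call was lost by edgeR, without a mean-variance trend, with only these groups in the fit, with oil replicates 2 and 3 averaged and on leaving out any 1 oil library or untreated replicate 1 or replicate 3. Without untreated replicate 2, the highest of its group for Hspb1, 3 members were higher (Hspb1, Bag3 and Dnaja4) and 2 lower (Grpel1 and Pfdn5). In that fit 9.51% of the table passed in either direction, so these calls do not set the members apart.

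Against oil, CCl4 gave lower values in 43 members and higher values in 6, which is how these genes entered the table, where 51.3% were lower. The largest log2 fold changes were -2.05 for Hspa1b, -1.86 for Hspb1 and -1.36 for Dnajb1, and 1.27 for Fkbp10 and 2.03 for Dnaja1-ps, a pseudogene with counts of 1.1 to 1.2 with oil and 2.5 to 17.5 with CCl4. Dnaja1-ps was higher where its parent Dnaja1 was lower, and Ptges3-ps, at 307.6 to 378 with oil and 180.2 to 223.4 with CCl4, was lower like Ptges3. Neither pseudogene passed with limma in the tested comparisons.

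Members with and without a heat shock element in the window were set side by side as a description. The 12 cytosolic members with a 2-unit element had a median log2 fold change of -0.41 for CCl4 + EVNorm against CCl4, -0.44 for oil + EVNorm against oil and -0.73 for CCl4 + EVNorm against oil + EVNorm, and the 18 without had -0.18, -0.26 and -0.46. Both sets spread widely, and Hspa8, Hsp90aa1, Cct4 and Dnajc2, which had no matched window, are in neither. Dnajb1 and Stip1, which fell, had no such letters in the window, while Hspb8, which has them, gave 0.08 for CCl4 + EVNorm against CCl4. Hspd1 and Hspe1 share the run of letters printed above but gave -0.21 and -0.73 for CCl4 + EVNorm against oil + EVNorm. Calr, with the ER stress element, was among the 5 members that rose there. Of 6 other genes of the ER unfolded protein response in the table, 4 were lower and 1 higher in that comparison. A link between the element and the rise of Calr was not tested.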

How the data were processed

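Liver RNA of 15 mice was measured by RNA-seq. Libraries were stranded; per the methods of the study and the submitters' processing notes, the tools were STAR 2.6.0c (alignment to GRCm38.p3), featureCounts (Gencode M19 genes) and DESeq2; whether counting used strand is not given in the sources used here. The deposited signal of each gene is its read count divided by a size factor for the library, written by the authors to 1 decimal. The authors' columns for CCl4 against oil (log2 changes and their errors, the score of the Wald test, p-values raw and adjusted) were not used. Dividing by the value of 1 read gave back whole reads in 100% of values within 0.05. The table holds 3511 genes, so adjustment covers those genes alone; whole library depth is not analysed here.

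Groups came from the sample labels, and separate animals from the account of the study. log2(normalized count + 1) of all 15 libraries was fitted with limma 3.58.1 (R 4.3.3, mean-variance trend, two-sided, Benjamini-Hochberg over 3511 genes, threshold 0.05) without a filter, so all 49 members were tested and fold changes of scarce genes are understated. The alternatives changed the pseudocount (0.5 or 5), kept genes with mean counts from 10 up, dropped the trend, fitted only the groups compared, centred libraries on their medians, added a block for the replicate number, left out each library, or tested the recovered reads with edgeR 4.0.16 or DESeq2 1.42.0. After seeing the data, averaging oil replicates 2 and 3, the block within the groups compared and the ER mean without Fkbp10 were added.

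Replicate numbers are shared by all groups, with no source for what they mark. Deviations from group means correlated at 0.23, 0.18 and 0.17 between same-numbered CCl4 and CCl4 + EVNorm mice, and at 0.06, -0.06 and 0.04 between oil and oil + EVNorm mice. Same-numbered mice of other groups reached 0.161 (oil + EVNorm with CCl4, replicate 3). Correlations between mice of different numbers were not computed. The limma fit described above took no mice as paired, and fits with the replicate block are given beside it as alternatives. Members past the threshold, up to 10 per comparison, and the pair with the highest mean count in each compartment are given in full. The members, compartments and lists were chosen with earlier results of these data known. Coordinates and exon lengths are from the GENCODE annotation of GRCm38 and promoters from RefSeq.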

Additional observations from a re-analysis of the deposited data

How the results depend on the processing

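The table holds only genes that differed between CCl4 and oil. The 46 member results past the threshold were repeated 782 times under alternatives, and 656 repeats kept direction and threshold, 126 lost the threshold and 0 changed sign. For CCl4 + EVNorm against CCl4, the 6 members called lower became 3 without a trend and 1 with median centring, 8 with DESeq2 (adding Cct4 and Fkbp4), 8 with only the groups compared (Cct4, Bag3 and Hsp90aa1 in, Hsph1 out) and 2 to 5 on leaving out 1 library of these groups. The replicate block gave 9 with all libraries and 6 within the 2 groups, of which 4 were among the first 6. Within these groups alone, the block lost Hsph1 and Stip1 and added Bag3 and Hsp90aa1. For oil + EVNorm against oil, the 2 lower members became 3 with the replicate block, 1 with a pseudocount of 5, without a trend or with only the groups compared, 0 with edgeR, with oil replicates 2 and 3 averaged or with the replicate block within these groups, and 0 to 2 on leaving out 1 library of these groups. They were 3 without untreated replicate 2. Without any 1 CCl4 library or CCl4 + EVNorm replicate 3, Dnajb1 alone was left. With DESeq2 the 0 higher became 1, where 4.16% of the table passed in either direction. For CCl4 + EVNorm against oil + EVNorm, the 32 lower members became 22 to 37 and the 5 higher 2 to 4 on leaving out 1 library of these groups. For oil against untreated, the 1 higher member became 0 without a trend, with only the groups compared, with edgeR, with oil replicates 2 and 3 averaged or with the replicate block within these groups, and 0 to 3 on leaving out 1 library of these groups, and the 0 lower 0 to 2. The 3 higher and 2 lower came without untreated replicate 2, where 9.51% of the table passed in either direction. With the median over members, cytosol minus ER was 0.14 with oil + EVNorm, -0.24 with CCl4 and -0.59 with CCl4 + EVNorm, and cytosol minus mitochondria was 0.12 with oil. Without Fkbp10, left out after seeing the data, cytosol minus ER was 0.067, -0.12 and -0.53 in these 3 groups. The cause was not tested.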

Other observations

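Folding factors outside the symbol rule showed both patterns. Of 49 listed, 13 were in the table, and 2 were lower with CCl4 + EVNorm than with CCl4 while 0 were higher. Ppic, a secretory pathway cyclophilin, had counts of 214, 224.9 and 228.9 with CCl4 and 83.1, 123.1 and 94 with CCl4 + EVNorm (-1.16, adjusted p = 0.0057 from limma). Serpinh1, the ER chaperone of collagen, had counts of 589.7, 601.9 and 743.3 and of 356.2, 399 and 338.3 (-0.82, adjusted p = 0.0114). Both act in the secretory pathway and, unlike the 6 cytosolic members, were higher with CCl4 + EVNorm than with oil + EVNorm (0.75 and 0.56, adjusted p = 0.0169 and 0.0203). Cacybp, a partner of Hsp90 and of ubiquitin ligases, was lower there (-0.92, adjusted p = 0.00089), and in all 7 of the 13 were lower and 4 higher in that comparison.

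Of 31 genes of the ER unfolded protein response, 6 were in the table and 0 passed for CCl4 + EVNorm against CCl4 with limma. Against oil + EVNorm, Herpud1 and Derl2, both of ER-associated degradation, were lower (-1.35 and -0.79, adjusted p = 0.0034 and 0.0031), as were Selenok and Chac1, while Asns, asparagine synthetase, was higher (2.03, adjusted p = 0.0104). Of 30 other cytosolic stress genes, 8 were in the table, and Nfe2l2, the antioxidant factor Nrf2, was lower with CCl4 + EVNorm (1684.9, 1665.7 and 1402.9) than with CCl4 (2259.1, 2399.8 and 2537.8; -0.60, adjusted p = 0.0287). Of 19 clock genes, 0 were in the table.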
